A study of Mus musculus with 7 samples.

Results

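The heat shock chaperones and cochaperones described here are 10 genes, Hspa8, Hspa4, Hsph1, Dnajb1, Hsp90aa1, Hsp90ab1, Stip1, Fkbp4, Hspd1 and Hspe1, taken by name from the 55367 gene symbols measured in each library. Every one of the 10 had a row of its own in all 7 libraries and passed the filter on low values in each comparison. The 10 were chosen with earlier results of these data known, so counts over them are descriptive only. The study profiled mRNA in G1E-ER4 cells that matured toward red cells with or without a metal chelator that lowers available zinc. These mouse erythroid progenitors are a clonal line without working GATA1 of its own, the main erythroid transcription factor. They carry a transgene for a fusion of GATA1 with an estrogen receptor domain, and adding estradiol switches this fusion on and sets off maturation in culture.

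There were 3 groups. The DTPA group held 3 libraries from cells given 100 nM β-estradiol together with 50 µM of the chelator DTPA and collected at 24 h. The control group held 3 libraries from cells given 100 nM β-estradiol alone for 24 h. The 0 h group was 1 library of cells that received neither agent, so it has no replicate. All 3 groups shared the line, the loss of GATA1, the fusion transgene and a medium with serum, erythropoietin and Kit ligand.

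HSP70 proteins bind unfolded stretches of client proteins and work through cycles of ATP hydrolysis. J-domain proteins deliver clients and start hydrolysis, nucleotide exchange factors of the HSP110 family reset the cycle, and STIP1 passes clients on to HSP90, whose own cochaperones tune the last folding steps. In mitochondria the chaperonin HSP60 and its lid HSP10 fold imported proteins. Heat shock factor HSF1 drives many of these genes through heat shock elements, which are repeats of a short GAA or TTC unit in alternating orientation. In human erythroblasts HSP70 is known to protect GATA1 from cleavage by a caspase.

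Under DTPA, 8 of the 10 genes were lower than in control cells at 24 h by limma's moderated test on log2(TPM + 1), with Benjamini-Hochberg adjustment over all 11147 genes tested. No gene of the 10 was higher on the deposited scale, and Hspa8 and Hspd1 did not pass the threshold of 0.05. Of all genes tested, 36.4% were lower and 21.7% were higher, so a fall by itself was common. Higher genes were 37.3% of all calls here, 49.1% with median-of-ratios scaling and 50.6% with quantile normalization, which put the median over all genes at 0.01 instead of -0.09 on the log2 scale. With median-of-ratios scaling 7 of the 10 genes were lower, without Hspe1, and 1 was higher, Hspa8 (log2 fold change 0.13, adjusted p = 0.0159). With quantile normalization 8 were lower, a set with Hspa8 (-0.19, adjusted p = 0.00700) and without Hspe1 (0.022, adjusted p = 0.780). The cochaperone Stip1 fell to 44.5% of its control level, the exchange factor Hsph1 to 49.8%, the J-domain protein gene Dnajb1 to 57.4% and the HSP90 cochaperone Fkbp4 to 57.8%. The HSP90 genes Hsp90aa1 and Hsp90ab1 fell to 73.4% and 85.8%, and Hspa4, the other exchange factor gene of the 10, fell to 75.1%, while the HSP70 gene Hspa8 stood at 101.6%. The median log2 fold change was -0.43 over the 10 genes and -0.09 over all genes tested. By libraries, 8 of the 10 genes had every DTPA library below every control library, which held for 40.3% of genes tested, and 1, Hspa8, had every DTPA library above, which held for 24.7%. A fall past the threshold of at least 1.5-fold was seen in 4 of the 10, against 14.1% of genes tested.

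**Figure D1:**
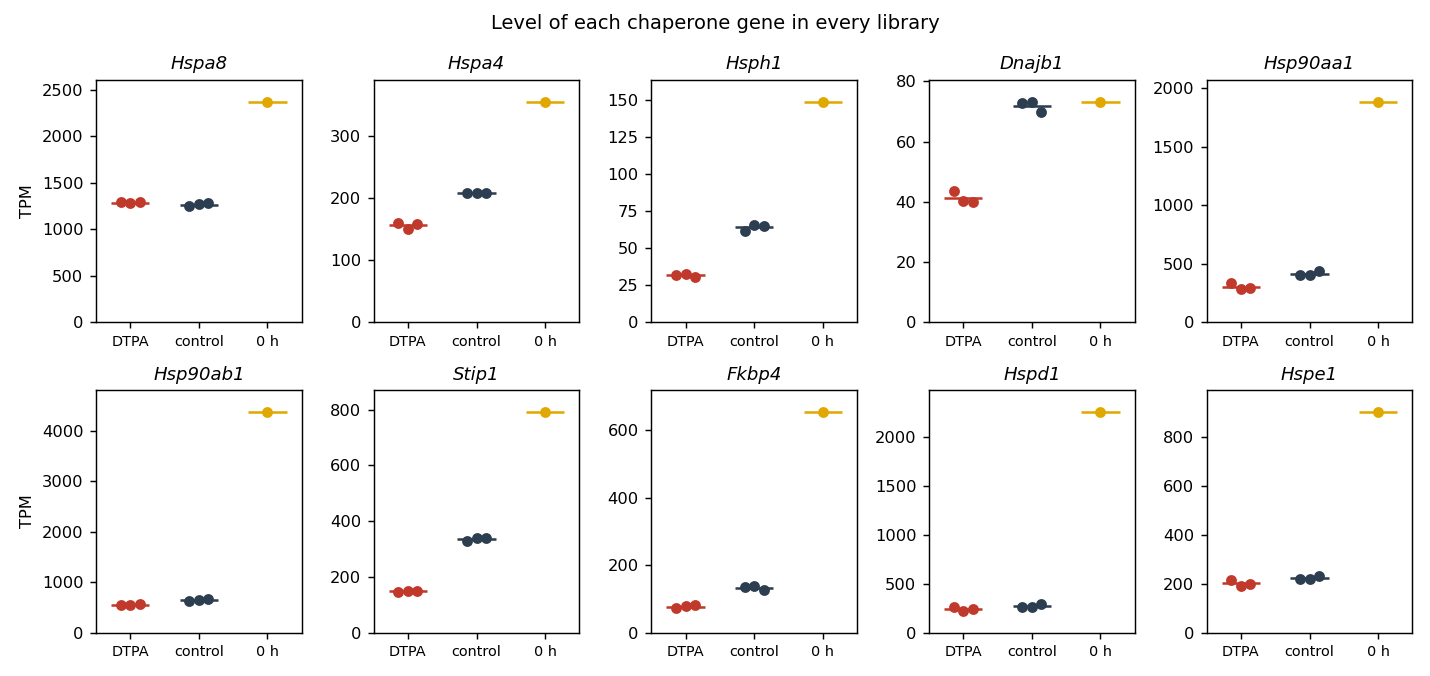
TPM of each of the 10 genes in every library, with the 3 DTPA libraries on the left, the 3 control libraries in the middle and the 0 h library on the right; points are libraries and lines are group means. Stip1, Hsph1, Dnajb1 and Fkbp4 show the widest relative gap between DTPA and control, Hspa8 shows almost none, and all genes but Dnajb1 are highest at 0 h.

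The depth estimated from the deposited values was 19.8 to 21.2 M reads in DTPA libraries, 17.7 to 18.6 M in control libraries and 17.6 M at 0 h. The 10 genes had between 878 reads (Dnajb1 in a DTPA library) and 77288 reads (Hsp90ab1 at 0 h). The metallothionein gene Mt2, a zinc-induced gene that reads the chelation, averaged 12.6 ± 0.992 TPM under DTPA, 2752 ± 153 TPM in control (SD, n = 3 each) and 2018 TPM at 0 h. Of 8 erythroid markers, 8 exceeded 1 TPM in some library, with sums of 21085 to 33687 TPM under DTPA, 22409 to 24914 TPM in control and 6649 TPM at 0 h. Gata1 averaged 1305 ± 118 TPM under DTPA, 3164 ± 93.1 TPM in control (SD, n = 3 each) and 2969 TPM at 0 h. Whether reads of the fusion transgene were counted in this row is not given in the sources used here, so it may not show the cells' own gene. Of 8 megakaryocyte markers, 5 exceeded 1 TPM, with sums of 42.4 to 51.5 TPM under DTPA, 9.08 to 12.7 TPM in control and 39.5 TPM at 0 h, while Ppbp and Vwf were at 0 in all libraries. Sums of 8 myeloid and mast cell markers were 1.33 to 2.79 TPM under DTPA, 3.09 to 3.19 TPM in control and 15.6 TPM at 0 h, with 3 of the 8 above 1 TPM and Mpo, Lyz2 and Itgam at 0. Sums of 5 lymphoid markers were 2.56 to 2.82 TPM under DTPA, 0.23 to 1.06 TPM in control and 0.09 TPM at 0 h, with 1 of the 5 above 1 TPM and Cd3e and Cd4 at 0. The megakaryocyte, myeloid and lymphoid sums thus moved with the groups. Gata1 was lower under DTPA than in control, while control and 0 h lay close (log2 fold change 0.09). The part of these differences in the chaperone results was not tested. In these bulk libraries, fewer cells of a type and less RNA per cell cannot be told apart.

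Promoter sequence is shown first for genes whose windows carry heat shock elements, and for Stip1, which fell most and whose window had no exact match. RefSeq (GRCm38.p6) windows of 250 bases before to 50 bases after an annotated start were matched for 7 of the 10 genes, in 10 windows; Hspa8, Hsp90aa1 and Hsp90ab1 were not analysed here in this respect. Each sequence runs 5′ to 3′ along the gene's strand, and capitals mark heat shock elements of 2 or 3 units, searched on both strands as GAANNTTC or TTCNNGAA, and with NNGAA added after the first or NNTTC after the second for 3 units, so that a match of 3 units contains matches of 2. The windows are chr1:55087898-55088197 on the plus strand for Hspe1, chr5:149636287-149636586 on the minus strand for Hsph1 (the first of its 2 annotated starts), chr6:128438607-128438906 on the minus strand for Fkbp4 and chr19:7039977-7040276 on the minus strand for Stip1.
Hspe1: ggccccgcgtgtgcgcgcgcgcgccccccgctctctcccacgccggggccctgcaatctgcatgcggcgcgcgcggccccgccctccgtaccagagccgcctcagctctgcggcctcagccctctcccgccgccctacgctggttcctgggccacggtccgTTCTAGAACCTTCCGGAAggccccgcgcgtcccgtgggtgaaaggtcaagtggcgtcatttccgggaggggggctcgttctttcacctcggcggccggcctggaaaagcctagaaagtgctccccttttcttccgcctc
Hsph1: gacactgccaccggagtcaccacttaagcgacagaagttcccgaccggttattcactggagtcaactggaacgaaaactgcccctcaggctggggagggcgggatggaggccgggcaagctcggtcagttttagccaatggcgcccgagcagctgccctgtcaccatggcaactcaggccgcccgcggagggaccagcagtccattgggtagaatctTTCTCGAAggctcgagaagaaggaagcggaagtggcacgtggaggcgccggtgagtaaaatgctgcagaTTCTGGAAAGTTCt
Fkbp4: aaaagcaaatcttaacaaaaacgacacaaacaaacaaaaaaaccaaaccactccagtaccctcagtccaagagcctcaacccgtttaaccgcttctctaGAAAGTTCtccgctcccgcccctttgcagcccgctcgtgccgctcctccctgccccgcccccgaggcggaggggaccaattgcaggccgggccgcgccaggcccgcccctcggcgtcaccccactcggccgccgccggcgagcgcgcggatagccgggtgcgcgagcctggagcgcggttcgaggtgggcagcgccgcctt
Stip1: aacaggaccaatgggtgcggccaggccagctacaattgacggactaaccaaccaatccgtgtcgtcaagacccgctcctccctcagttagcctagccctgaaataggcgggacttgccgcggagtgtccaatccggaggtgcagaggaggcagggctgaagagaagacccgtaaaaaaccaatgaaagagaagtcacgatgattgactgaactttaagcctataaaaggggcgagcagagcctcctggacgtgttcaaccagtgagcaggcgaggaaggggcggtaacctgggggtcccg

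An element of 3 units was found in 3 of the 7 genes with a window, Hspd1, Hspe1 and Hsph1, and in 0.66% of the 27025 genes with windows. An element of 2 or more units was found in 4 of the 7, with Fkbp4 added, and in 16.97% of all genes with windows. Hspd1 and Hspe1 lie head to head, and the windows of Hspe1 and of the second Hspd1 start hold the same 18 bases at chr1:55088059-55088076, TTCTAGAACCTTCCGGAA read toward Hspe1 and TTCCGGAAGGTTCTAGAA read toward Hspd1. They begin 89 bases before the Hspe1 start and 144 bases before that Hspd1 start. In Hsph1 the element TTCTGGAAAGTTC begins at base 37, counted from 1 at the first start, and TTCTCGAA begins 33 bases before that start. In Fkbp4 GAAAGTTC begins 151 bases before the start. The Stip1 window holds 4 matches to CCAAT (or ATTGG) and 1 to TATAAA, motifs found in 41.06% and 15.67% of all genes with windows. The first Dnajb1 window, chr8:83607925-83608224, holds 2 CCAAT matches, and the Hspa4 window, chr11:53300430-53300729, holds none of the motifs searched. Genes with heat shock elements held CCAAT matches too, with 2 in each Hsph1 window, 1 in the Fkbp4 window and 1 in the first Hspd1 window. CACGTG was found in Hsph1 and in the first Hspd1 window, and in 8.09% of genes with windows, while GATAA (or TTATC), present in 28.43%, was in none of the 10 windows. Genes with a 3-unit element were found both at the strong end of the DTPA response (Hsph1) and at its weak end (Hspe1 and Hspd1). Stip1 and Dnajb1 had no exact match in these windows, and elements with mismatches or farther away were not searched.

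**Figure D2:**
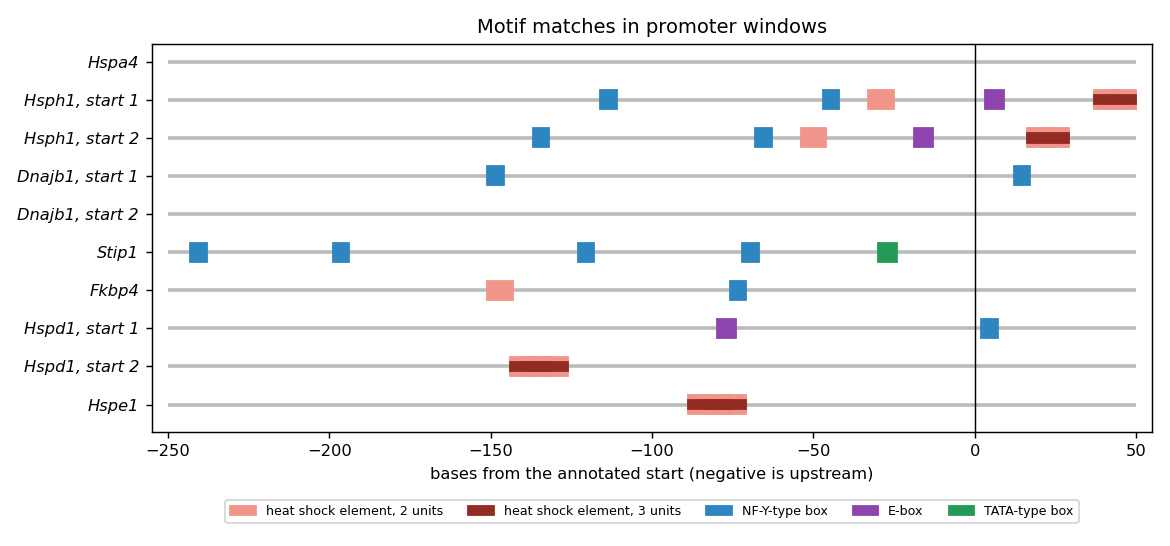
Motif matches on either strand in the 10 RefSeq windows of 7 genes, by distance in bases from the annotated start; the NF-Y-type box is CCAAT, the E-box is CACGTG and the TATA-type box is TATAAA. Matches of 3 heat shock units appear in Hsph1, Hspe1 and the second Hspd1 window, and those of Hspe1 and Hspd1 are the same bases.

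Hspa8 encodes HSC70, the constitutive cytosolic HSP70, and lies at chr9:40800984-40810087 on the plus strand (GENCODE M21, GRCm38, as for all gene positions here; all 10 genes are protein-coding and their values sum over exons). It had 1290.3, 1277 and 1289 TPM in DTPA libraries, 1249, 1272 and 1277 TPM in control libraries and 2372 TPM at 0 h. The DTPA libraries lay just above the controls, by less than 1 SD of the controls between the closest pair, and the log2 fold change was 0.022 ± 0.0331 (SE, limma adjusted p = 0.591), with a 95% interval of -0.06 to 0.10. Its exons share 262 bases with the small nucleolar RNA genes Snord14c, Snord14d and Snord14e on the same strand. The sign of this small difference turned with the scaling: it was 0.13 with median-of-ratios scaling (adjusted p = 0.0159) and -0.19 with quantile normalization (adjusted p = 0.00700). Its level was lower at 24 h than at 0 h, by 0.91 in control cells and by 0.88 in DTPA cells on the log2 scale. Both falls were short of the 2-fold asked for a call against the single 0 h library.

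Reads of Hspa8 can be shared with near-identical copies. Gm15459, whose transcript matches that of Hspa8 at 95% identity or more over 1941 bases, had 931, 896 and 939 TPM under DTPA, 925, 918 and 932 TPM in control and 1716 TPM at 0 h. The 8 such copies together stood at 70.7% to 74.6% of the Hspa8 value in every library. How the authors' counting split such reads is not given in the sources used here, so the level of Hspa8 is uncertain. With the copies added, its log2 fold change between DTPA and control was 0.011 (adjusted p = 0.806). Across the 7 libraries, the 5 genes of 8862 ranked whose centred log2 profile lay nearest to that of Hspa8 were Gm15459, Hemk1, Mrps23, Ccdc115 and Pde12, at root-mean-square differences of 0.0223, 0.0340, 0.0355, 0.0396 and 0.0401. Among the other 9 chaperone genes the nearest was Hspa4 at 0.205 and the farthest Hspd1 at 0.783.

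Dnajb1 encodes HSP40, the J-domain partner that stimulates HSP70, at chr8:83608193-83612653 on the plus strand. It had 43.7, 40.2 and 40.1 TPM under DTPA, 72.7, 73.3 and 69.8 TPM in control and 73.1 TPM at 0 h. All DTPA libraries were below all others, and the 0 h value lay within the control range. The log2 fold change was -0.79 ± 0.0498 (SE, limma adjusted p = 9.40e-06) between DTPA and control, and 8.63% of genes tested had a change this low or lower. Between control and 0 h the log2 fold change was -0.023 (95% interval -0.18 to 0.13). Of the 10 genes Dnajb1 was thus the one for which no change between 0 h and control at 24 h was detected. The log2 fold change was -0.81 between DTPA and 0 h, under 2-fold.

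Hsph1 and Hspa4 encode HSP110 proteins, the exchange factors that release ADP from HSP70, at chr5:149614287-149636376 and chr11:53259814-53300457 on the minus strand. Hsph1 had 31.9, 32.6 and 30.7 TPM under DTPA, 61.3, 65.5 and 64.7 TPM in control and 149 TPM at 0 h. The 3 groups did not overlap, with DTPA lowest and 0 h highest. Its log2 fold change was -0.98 ± 0.0478 (SE, adjusted p = 2.46e-06) between DTPA and control and -1.21 between control and 0 h (adjusted p = 9.87e-06). Hspa4 had 160.4, 149.5 and 159 TPM under DTPA, 208, 208 and 209 TPM in control and 355 TPM at 0 h. It kept the same order of groups with a smaller step, at -0.41 ± 0.0395 (SE, adjusted p = 7.87e-05) between DTPA and control and -0.77 between control and 0 h (adjusted p = 2.73e-05), under 2-fold.

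The balance of Hspa8 to its partners differed between the groups. Hspa8 was 6.84 ± 0.156 times the sum of Hspa4 and Hsph1 under DTPA, 4.65 ± 0.0195 times in control (SD, n = 3 each) and 4.71 times at 0 h. Hspa8 was 31.2 ± 1.41 times Dnajb1 under DTPA, 17.6 ± 0.593 times in control and 32.4 times at 0 h. In both ratios every DTPA library was above every control library. These ratios take TPM, which are per length, and carry the uncertainty of the Hspa8 level.

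Stip1 encodes HOP, the adaptor that bridges HSP70 and HSP90, at chr19:7020702-7039967 on the minus strand. It had 147, 152 and 151 TPM under DTPA, 331, 339 and 339 TPM in control and 790.0 TPM at 0 h. The groups were far apart relative to their spread, and Stip1 had the largest log2 fold change of the 10 between DTPA and control, -1.16 ± 0.0342 (SE, limma adjusted p = 2.39e-07), where 3.86% of genes tested had a change this low or lower. Control cells were lower than 0 h by a similar step, -1.23 ± 0.0356 (SE, adjusted p = 1.88e-06), and DTPA cells were lower than 0 h by 2.39 on the log2 scale (adjusted p = 2.70e-07). By mean level Stip1 was the fourth of the 10 genes in control and the seventh under DTPA, where its libraries overlapped those of Hspa4.

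Hsp90aa1 and Hsp90ab1 encode the cytosolic HSP90 proteins, the first known as stress-inducible and the second as constitutive, at chr12:110690605-110702728 and chr17:45567775-45573271 on the minus strand. Hsp90aa1 had 335, 284 and 294 TPM under DTPA, 402, 403 and 439 TPM in control and 1885 TPM at 0 h. Hsp90ab1 had 547, 555 and 568 TPM under DTPA, 628, 656 and 662 TPM in control and 4361 TPM at 0 h. For both genes each DTPA library was below each control library, and the gap to 0 h was many times the gap between the 24 h groups. Between DTPA and control the log2 fold change was -0.45 ± 0.0690 (SE, adjusted p = 9.67e-04) for Hsp90aa1 and -0.22 ± 0.0375 (SE, adjusted p = 0.00159) for Hsp90ab1. Between control and 0 h it was -2.18 (adjusted p = 1.00e-05) and -2.75 (adjusted p = 4.11e-07), in the same order of genes. Hsp90ab1 ranked 229 among all symbols by mean TPM under DTPA, 201 in control and 16 at 0 h.

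Hsp90aa1 made up 38%, 33.8% and 34.1% of the cytosolic HSP90 mRNA in DTPA libraries, 39.0%, 38.1% and 39.9% in control libraries and 30.2% at 0 h. The DTPA share was lower by 3.67 percentage points, with no overlap, and the exact two-sided permutation test gave p = 0.1, the smallest that 3 against 3 libraries allow. DTPA replicate 1 lay close to the lowest control, at 38% against 38.1% in that control. The summed HSP90 mRNA was 5.75 ± 0.231 times Stip1 under DTPA, 3.16 ± 0.0716 times in control (SD, n = 3 each) and 7.91 times at 0 h. It was 0.670 ± 0.0135 times Hspa8 under DTPA, 0.840 ± 0.0197 times in control and 2.63 times at 0 h.

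Fkbp4 encodes FKBP52, an immunophilin cochaperone of HSP90 known from steroid receptor complexes, at chr6:128429735-128438677 on the minus strand. It had 72.9, 78.4 and 80.9 TPM under DTPA, 135, 139 and 127 TPM in control and 653 TPM at 0 h. The groups did not overlap, with DTPA lowest and 0 h highest. Its log2 fold change was -0.78 ± 0.0547 (SE, limma adjusted p = 1.56e-05) between DTPA and control, -2.28 between control and 0 h (adjusted p = 2.81e-06) and -3.06 between DTPA and 0 h (adjusted p = 8.52e-07).

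Hspd1 and Hspe1 encode HSP60 and HSP10, the mitochondrial chaperonin and its lid, at chr1:55077835-55088243 on the minus strand and chr1:55088132-55091307 on the plus strand. Their exons overlap by 112 bases on opposite strands. The library kit keeps the strand, per the labels, but the strand setting of the counting is not given in the sources used here. Hspd1 had 269, 224 and 248 TPM under DTPA, 268, 265 and 297 TPM in control and 2250.1 TPM at 0 h. Hspe1 had 216, 192 and 199 TPM under DTPA, 219, 221 and 233 TPM in control and 902 TPM at 0 h. The 24 h groups overlapped for Hspd1 and nearly touched for Hspe1, while the 0 h library stood far above both groups.

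Between DTPA and control the log2 fold change of Hspd1 was -0.17 ± 0.0749 (SE, limma adjusted p = 0.0921, 95% interval -0.34 to 0.01), and it passed without DTPA replicate 1 (-0.23, adjusted p = 0.0273). That of Hspe1 was -0.15 ± 0.0529 (SE, adjusted p = 0.0407), a call that did not hold without control replicate 1, 2 or 3 (adjusted p = 0.0628, 0.0760 and 0.110) or without DTPA replicate 2 or 3 (adjusted p = 0.128 and 0.113). With quantile normalization it was 0.022 (adjusted p = 0.780). Between control and 0 h the log2 fold change was -3.02 ± 0.113 for Hspd1 (SE, adjusted p = 4.25e-06), the largest of the 10, and -2.0 ± 0.0737 for Hspe1 (SE, adjusted p = 4.04e-06). Hspd1 was 1.22 ± 0.0472 times Hspe1 under DTPA, 1.23 ± 0.0389 times in control (SD, n = 3 each; exact two-sided permutation p = 0.7) and 2.50 times at 0 h. A processed copy, Hspd1-ps3, stood at 9.49% to 22.3% of the Hspd1 value, and with it added the Hspd1 log2 fold change between DTPA and control was -0.15 (adjusted p = 0.0509).

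Set against the 0 h library, control cells at 24 h were lower by at least 2-fold in 7 of the 10 genes, against 23.7% of the 12190 genes tested, with adjusted p below 0.05 in limma. DTPA cells were lower than 0 h by that rule in 8 of the 10, against 27.2% of genes tested. No gene of the 10 was higher in either comparison, where 14.7% and 15.5% of genes tested were. These fits assume that the 0 h library varies like the others, and both comparisons share it, so they are given side by side. Estradiol and 24 h of culture came together in both, so their parts cannot be told apart. Regardless of size, 9 of the 10 were lower in control than at 0 h (42.5% of genes tested) and 10 of the 10 were lower in DTPA than at 0 h (45.8%). The median log2 fold change of the 10 genes was -1.62 in control and -2.29 in DTPA, against -0.19 and -0.28 over all genes tested. The fold of 0 h over control ran widely, at 8.13 for Hspd1, 6.72 for Hsp90ab1, 4.87 for Fkbp4, 4.55 for Hsp90aa1, 4.01 for Hspe1, 2.35 for Stip1, 2.33 for Hsph1, 1.87 for Hspa8, 1.71 for Hspa4 and 1.02 for Dnajb1.

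**Figure D3:**
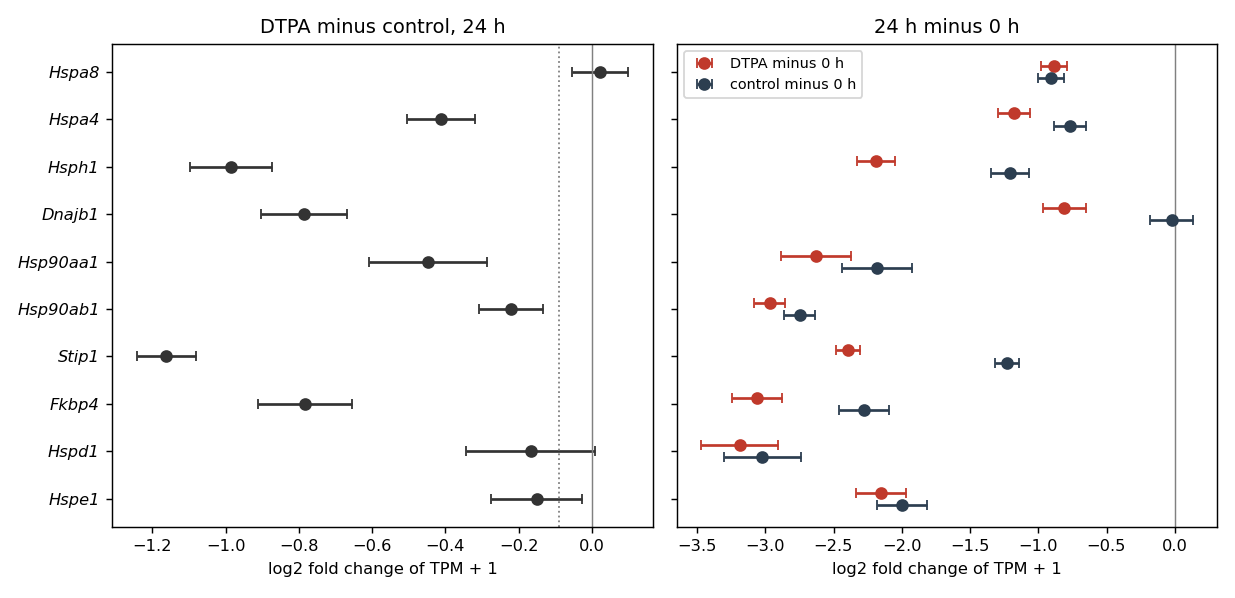
Log2 fold changes of TPM + 1 with 95% intervals from limma for the 10 genes; the left panel gives DTPA minus control at 24 h, with a dotted line at the median of all tested genes (-0.09), and the right panel gives DTPA minus 0 h and control minus 0 h. Stip1 and Hsph1 lie farthest left in the DTPA comparison, whereas Hspd1 and Hsp90ab1 lie farthest left in control against 0 h.

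The comparison of DTPA with control and that of control with 0 h share the control libraries, so their values stand side by side only. Hspd1 and Hsp90ab1, with -3.02 and -2.75 in control against 0 h, had -0.17 and -0.22 in DTPA against control. Stip1 had -1.23 and -1.16 in the same order of comparisons, Hsph1 -1.21 and -0.98, and Dnajb1 -0.023 and -0.79. The 0 h library was above all 24 h libraries for 9 of the 10, with Dnajb1 the exception, and for 47% of genes tested.

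The 10 genes summed to 3113, 2984 and 3059 TPM in DTPA libraries, 3573, 3644 and 3717 TPM in control libraries and 13789 TPM at 0 h. This was 0.305% ± 0.00648 of all TPM under DTPA, 0.364% ± 0.00722 in control (SD, n = 3 each) and 1.38% at 0 h. Hspa8 made up 42.1% ± 0.678 of the sum under DTPA, 34.7% ± 0.338 in control and 17.2% at 0 h. Stip1 made up 4.91% ± 0.177 under DTPA, 9.23% ± 0.0922 in control and 5.73% at 0 h. Hsp90ab1, the largest component at 0 h with 31.6%, made up 18.2% ± 0.589 under DTPA and 17.8% ± 0.222 in control, where the groups overlapped. A share of a sum falls for 1 gene when another rises, so these shares show unequal change only.

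**Figure D4:**
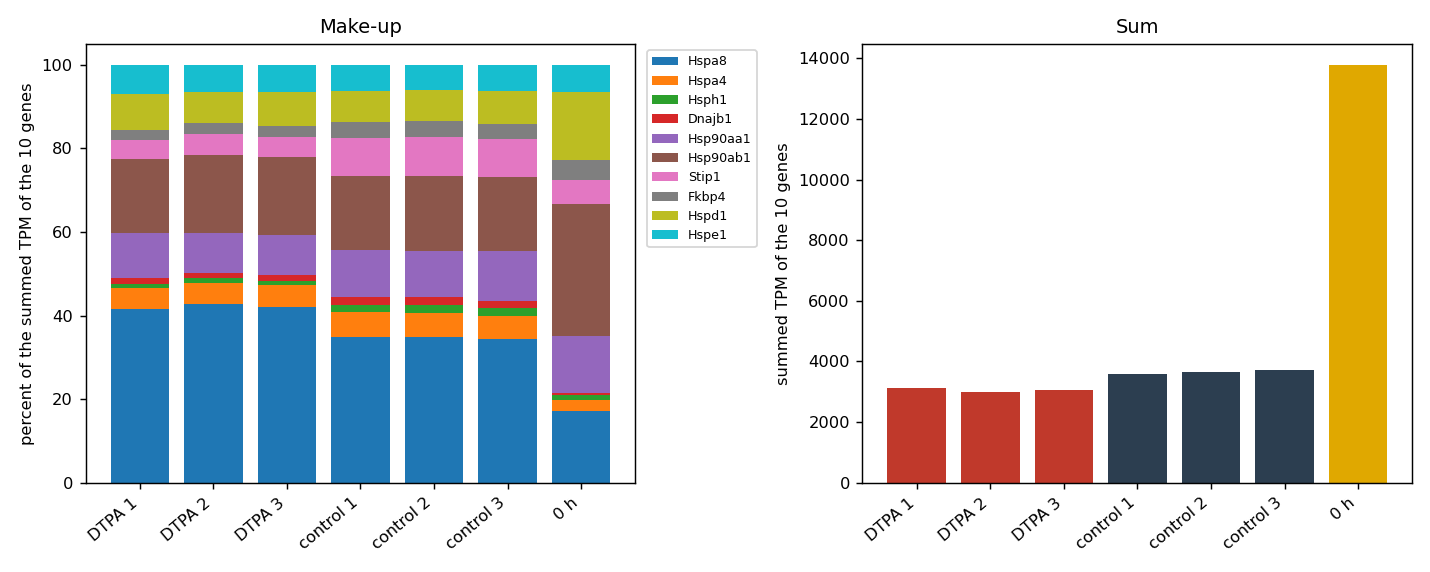
Share of each gene in the summed TPM of the 10 genes (left, percent) and the sum itself (right, TPM) for each of the 7 libraries, with DTPA libraries on the left, controls next and 0 h last. Hspa8 takes 42.1% on average under DTPA, 34.7% in control and 17.2% at 0 h, and the sum at 0 h is 13789 TPM.

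Other genes of the heat shock system were read from lists chosen by function, with earlier results of these data known. Their counts for DTPA against control stand beside 36.4% lower and 21.7% higher over all genes tested. Hsf1, which encodes the main heat shock factor, averaged 7.09 ± 0.697 TPM under DTPA, 9.49 ± 0.236 TPM in control (SD, n = 3 each) and 36.7 TPM at 0 h, and fell by 0.38 on the log2 scale between DTPA and control (limma adjusted p = 0.00653). Hsf2, a second factor of the family, averaged 7.34 ± 0.117 TPM under DTPA and 6.04 ± 0.145 TPM in control, with 2.80 TPM at 0 h, and rose by 0.25 (adjusted p = 0.0209), a call lost without control replicate 2 (adjusted p = 0.0585) and without DTPA replicate 2 or 3 (adjusted p = 0.0706 and 0.0538). Of the 5 genes on that list, 3 were tested, 1 was higher, 1 lower and 1 did not pass. Hspa1a, an inducible HSP70, was listed at 0 in all 7 libraries, and its twin Hspa1b reached at most 0.20 TPM under DTPA, 0.18 TPM in control and 0 at 0 h. The pair are near-identical and the handling of reads with several matches is not given, so their total and their split are uncertain. Bag3, a cochaperone induced in stress, had 88.7, 111 and 100.2 TPM under DTPA, 119.9, 119 and 115 TPM in control and 78.7 TPM at 0 h, and was lower under DTPA (log2 fold change -0.24, adjusted p = 0.0270).

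Of 15 listed J-domain protein genes, 14 were tested, 10 fell, 2 rose and 2 did not pass, with a median log2 fold change of -0.30. Over all genes tested, 36.4% were lower and 21.7% were higher, with a median of -0.09. Dnajc9, a histone-binding cochaperone, averaged 36.8 ± 2.30 TPM under DTPA, 85.2 ± 0.896 TPM in control and 190.1 TPM at 0 h (-1.19, adjusted p = 1.68e-06). Dnajb5 rose by 0.82 (4.03 TPM under DTPA and 1.84 TPM in control, adjusted p = 6.66e-04) and Dnajb12, which encodes a protein of the endoplasmic reticulum membrane with its J domain toward the cytosol, by 0.74 (60.0 TPM under DTPA and 35.6 TPM in control, adjusted p = 9.73e-05). Of 9 HSP70 exchange factors and partners, 6 fell, 0 rose and 3 did not pass, with a median of -0.24. Hspbp1, an exchange factor, fell by 0.68 (adjusted p = 2.11e-04), Bag2, which encodes an inhibitor of STUB1, fell by 0.48 (adjusted p = 2.80e-04) and Stub1, a ubiquitin ligase that binds HSP70 and HSP90, fell by 0.45 (adjusted p = 5.87e-05). Of 9 other cytosolic HSP70 and HSP110 genes, 5 were tested, 1 rose, 2 fell and 2 did not pass, with a median of 0.020. Hspa14, a ribosome-associated HSP70 gene, fell by 0.68 (16.2 TPM under DTPA and 26.6 TPM in control, adjusted p = 1.09e-04), Hspa4l fell by 0.33 (adjusted p = 0.00152) and Hspa2 rose by 0.46 (adjusted p = 0.00248).

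The cochaperones of HSP90 were mixed. Of 15 on the list 14 were tested, 6 fell, 3 rose and 5 did not pass, with a median log2 fold change of -0.11, close to the -0.09 of all genes. Ttc4, a cochaperone with tetratricopeptide repeats, fell by 0.54 (adjusted p = 3.76e-05), Ptges3, which encodes p23, fell by 0.36 (120.0 TPM under DTPA and 154 TPM in control, adjusted p = 0.00381) and Unc45a, a myosin chaperone, rose by 0.48 (adjusted p = 8.59e-04). Of 11 mitochondrial chaperones and proteases, 8 fell, 1 rose and 2 did not pass, with a median of -0.36. The protease gene Lonp1 averaged 85.6 ± 6.04 TPM under DTPA, 165 ± 5.25 TPM in control and 254 TPM at 0 h (-0.94, adjusted p = 8.17e-06). Clpx, the unfoldase subunit of a matrix protease, fell by 0.73 (adjusted p = 5.59e-05) and Dnaja3, a mitochondrial J-domain protein gene, fell by 0.67 (adjusted p = 5.89e-05).

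Each of the 5 genes that fell on the next list is also counted on a list above, so it is not a separate observation. Of 7 cochaperones with zinc-binding folds, 6 were tested, 5 fell, 0 rose and 1 did not pass, with a median log2 fold change of -0.31. Dnaja3 is also on that list, Chordc1, a CHORD domain protein gene, fell by 0.35 (36.9 TPM under DTPA and 47.4 TPM in control, adjusted p = 0.00160) and Dnaja2 fell by 0.31 (97.1 TPM under DTPA and 121 TPM in control, adjusted p = 0.00115). Of 10 genes known for acute induction by HSF1, 5 were tested, each also counted on a list above. Of these, 4 fell and 1 rose, with a median of -0.33. Dnajb4 fell by 0.73 (18.0 TPM under DTPA and 30.5 TPM in control, adjusted p = 8.44e-05), with 5.42 TPM at 0 h, and Chordc1 and Hspa4l are on that list too. Of 8 small heat shock protein genes, 1 was tested: Hspb6 fell by 0.77 (9.48 TPM under DTPA and 16.9 TPM in control, adjusted p = 4.83e-05). Hspb1 and Cryab were listed at 0 in all 7 libraries. As for the 10 chaperone genes, these counts stand beside a background of 36.4% lower and 21.7% higher.

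**Figure D5:**
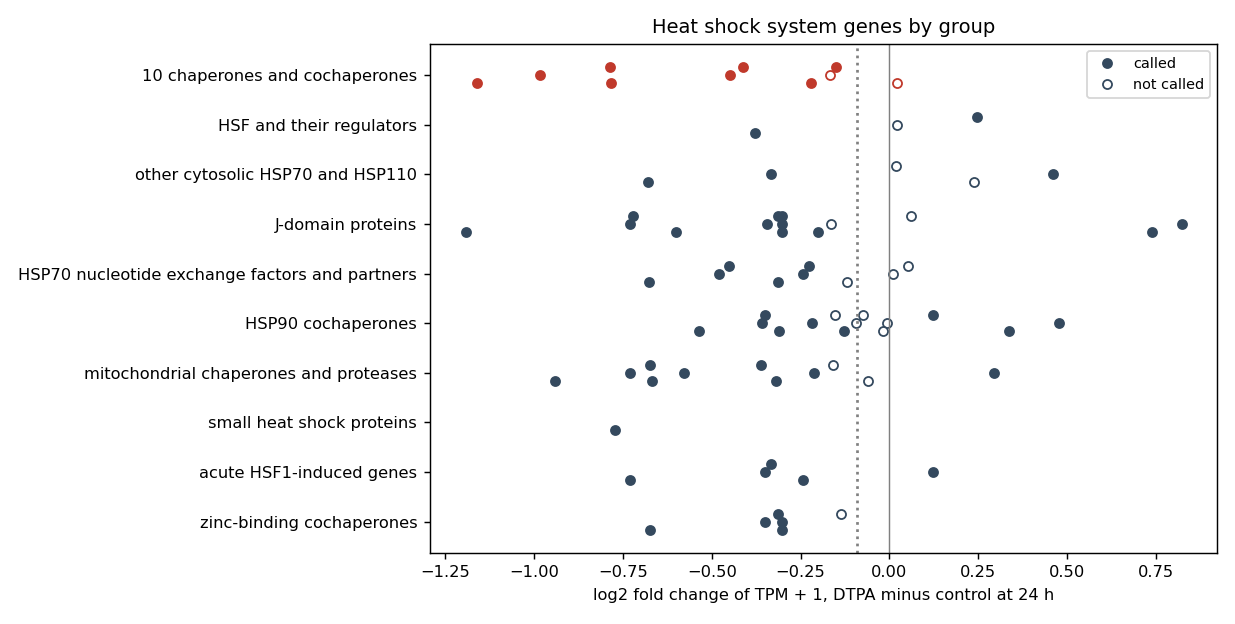
Log2 fold changes of TPM + 1, DTPA minus control at 24 h, for the 10 genes (red) and 9 lists of related genes (dark); filled points passed limma's test, open points did not, and the dotted line is the median of all tested genes, -0.09. Most filled points of the J-domain, exchange factor and mitochondrial lists lie left of the line, and the HSP90 cochaperones fall on both sides.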

How the data were processed

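RNA from 7 G1E-ER4 libraries (3 DTPA, 3 control, 1 at 0 h) was sequenced from TruSeq stranded mRNA libraries, per the labels. TPM values per gene symbol were deposited by the authors. The submitters' processing notes name Trimmomatic 0.33, FastQC, HISAT2 2.1.0, featureCounts, edgeR and the build mm10. The annotation, strand setting and handling of reads with several matches are not given in the sources used here. TPM is a share of each library, so genes that rise lower the others.

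Values of 114 symbols on more than 1 row were summed, leaving 55367 symbols. Depth was estimated from the steps of low TPM multiplied by exon length (GENCODE M21); 99.2% to 99.4% of the low values came within 0.1 of whole reads. No pair of replicates agreed within counting noise. Replicates are called biological in the labels, and p-values measure the spread between these libraries.

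The tests were limma's (version 3.58.1, run under R 4.3.3), applied to log2(TPM + 1), with a variance trend, two-sided, with Benjamini-Hochberg adjustment over all tested genes and a threshold of 0.05. Fold changes on this scale understate the change of low genes. DTPA against control used the 6 libraries at 24 h and genes with at least 1 TPM in 3 libraries. Comparisons with 0 h used all 7 libraries, genes with a group mean of at least 1 TPM, and also asked for 2-fold. Near copies were transcripts matching by blastn at 95% identity or more over at least 200 bases. The fit was also run on data simulated from the means and spread of the control libraries, with results not reported here.

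The 10 genes and the lists were chosen with earlier results of these data known. Named besides the 10 are up to 3 called genes per list with the largest change, Hsf1, Hspa1a, Hspa1b and Bag3, and the 5 genes nearest to Hspa8 with a mean of at least 5 TPM. Hspb1 and Cryab were named after their values were seen. Alternatives were other pseudocounts, filters and scalings, no trend, a replicate block, each replicate left out and, chosen after seeing the data, near copies added. Protein features were not analysed here. Some single marker genes are not reported here.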

Additional observations from a re-analysis of the deposited data

How the results depend on the processing

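Of 170 results for the 10 genes in DTPA against control over 17 other settings, 156 kept direction and side of the threshold. Of 150 in control against 0 h over 15 settings 147 did, and of 150 in DTPA against 0 h 149 did. Scaling moved the centre of all genes: higher calls in DTPA against control were 37.3% of calls as reported, 49.1% with median-of-ratios scaling (3119 higher, 3234 lower) and 50.6% with quantile normalization (3190 higher, 3112 lower), with medians of -0.09, 0.01 and 0.01. In control against 0 h the share was 38.3%, 47% and 49.5%, with medians of -0.19, -0.03 and 0. In DTPA against 0 h it was 36.3%, 48.2% and 49.5%, with medians of -0.28, -0.03 and 0. Of the 10 genes, 1 was higher under DTPA with median-of-ratios scaling, Hspa8 (0.13, adjusted p = 0.0159), which was -0.19 with quantile normalization (adjusted p = 0.00700). Hspe1 was 0.022 with quantile normalization. Hspe1 also lost its call with no filter (adjusted p = 0.0756), median-of-ratios scaling (0.511), no globin genes (0.0739) and no trend (0.0837). Dnajb1 in control against 0 h was 0.16 with median-of-ratios scaling, 0.040 with quantile normalization and 0.036 without globin genes, none past the threshold. Hspa4 in DTPA against 0 h was -0.89 with median-of-ratios scaling, under 2-fold. The Hspd1 to Hspe1 ratio differed by -0.0134 between DTPA and control, by 0.0017 with near copies added, and by -0.0301 to 0.0138 with each replicate left out. Hsf2 lost its call with no filter (adjusted p = 0.0503), and Ptges3 with quantile normalization (0.0764). The cause of these changes was not tested. With each replicate left out, 7 to 9 of the 10 were lower in DTPA than in control.

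Replicate numbers did not pair the samples: deviations of same-numbered libraries correlated at -0.0103, 0.0242 and -0.00964. With a replicate block 2274 genes were higher and 3888 lower, and 7 of the 10 were lower, since Hspe1 (adjusted p = 0.0691) did not pass. Hsf2 did not pass either (0.0533). Limits are the single 0 h library, the lack of a 24 h library without estradiol, the share scale of TPM and counts of as few as 878 reads behind Dnajb1.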
